A study of Schizosaccharomyces pombe with 6 samples.

Results

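The 68 genes described here carry the names of chromatin modifiers and remodellers of fission yeast (Schizosaccharomyces pombe): SET domain methyltransferases, the subunits of the SWI/SNF, RSC, INO80 and SWR1 remodelling complexes, the SAGA, NuA4 and Mst2 acetyltransferase complexes, the sirtuins, the CHD remodellers and the Spt elongation factors. They were picked by a name pattern, as the probe sets with a single gene symbol that begins with a stem such as set, snf, rsc, swc, gcn, spt, mst or hrp. The choice was made with earlier results of these data known. They are 68 of 2936 S. pombe probe sets tested, with 1 probe set each. A name can mislead: ada1 (the AMP deaminase, while the SAGA subunit of that name is now hfi1), gcn2 and sir1 have roles outside chromatin, and S. pombe eaf1 is an elongation factor and no NuA4 subunit. RNA came from cells in mid-log growth in rich medium and was hybridised to Affymetrix yeast arrays. There were 3 groups of 2 arrays: wild type, fkh2delta, which lacks the forkhead factor gene fkh2, and fkh2-S2A, which carries a mutant fkh2 allele whose change the labels do not spell out. By the labels wild type and fkh2-S2A have a common strain name and fkh2delta a different one, so that an effect of the deletion cannot be told apart from that of the strain. No label says that the 2 arrays of a group are from different cultures, and p-values therefore reflect a spread between arrays that could be technical.

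Chromatin is changed by enzymes that write or remove marks on histone tails, such as methylation by SET domain proteins, acetylation by Gcn5 or Mst1 and deacetylation by sirtuins, and by ATP-driven machines that slide, evict or exchange nucleosomes. Histone chaperones such as FACT and Spt6 take nucleosomes apart before RNA polymerase and rebuild them behind it. Fkh2 is a forkhead transcription factor that acts on genes with a peak of expression around mitosis. Values below are the authors' log2 signals, a change is the log2 difference of 2 group means ± its standard error (SE), from a limma fit over all arrays, and a gene is said to have risen or fallen where the Benjamini-Hochberg adjusted p over all 2936 probe sets was below 0.05.

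The deleted gene fkh2 had signals of 7.53 and 7.39 in wild type, of 7.47 and 7.76 in fkh2-S2A and of 4.34 and 4.05 in fkh2delta, the last below background on each array. The gene ura4, a common selection marker, was at 5.40 and 6.17 in fkh2delta and between 12.6 and 12.9 elsewhere. Of the 68 members 67 lay above the background level, between 5.17 and 5.35, on all 6 arrays, and spt3 did so on all but 1. The following features of the arrays moved with the groups or, for the last, differed within them. Their part in the results below was not tested except where a value is given. For RNA quality, the 3′ probe sets of 6 control genes exceeded the 5′ ones by means of 1.53 and 1.61 in fkh2delta and of 1.24 to 1.35 on the other arrays. Signals followed gene length, with slopes over all S. pombe probe sets of 0.070 and 0.11 log2 units per doubling of length in fkh2-S2A against -0.073 to -0.010 elsewhere. Replicate 1 was above replicate 2 for 58 of the 68 members in wild type, for 21 in fkh2delta and for 16 in fkh2-S2A. The same count over all probe sets was not made.

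In fkh2delta more of the chromatin genes were higher than lower. Of the 68 members 35 rose (51.5%), against 40.4% of all probe sets, and 6 fell (8.82%), against 23.6%. In either direction 41 of the 68 changed, near the 64% of all probe sets. In RNA from whole cultures fewer cells with a transcript and less of it per cell cannot be told apart. The median change of the members was 0.35, with quartiles of -0.10 and 0.70, and the median of all probe sets was 0.16. The changes were moderate: hrp1, hst2 and eaf1 rose and ada1 fell by at least 1 on the log2 scale. Without ada1, gcn2 and sir1, 34 rose and 4 fell. The 0.16 shift of all probe sets became 0.033 after median centring, when 30 members rose (44.1%, background 33.3%) and 13 fell (19.1%, background 30.9%). After quantile normalization 30 rose (background 32.9%) and 18 fell (26.5%, background 30.4%), so that the share of falls changed with the scaling.

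In fkh2-S2A the called changes were again mostly upward. Of the 68 members 29 rose (42.6%), against 23.5% of all probe sets, and 2 fell (2.94%), against 9.84%. In either direction 31 of the 68 changed, and 33.3% of all probe sets did. The median was 0.28, against 0.041 over all probe sets, and spt16, hrp1 and hrp3 passed 1 on the log2 scale. After median centring 21 rose (30.9%, background 19.1%) and 3 fell, and after quantile normalization 15 rose (22.1%, background 15.1%) and 4 fell. Without wild-type replicate 2, 12 members rose (17.6%, background 8.41%). In the direct comparison of the mutants 14 members were higher in fkh2-S2A and 14 were lower (20.6% each), near the background of 22.5% and 26.6%, or 49.1% in either direction. Median centring left 17 higher and 12 lower (background 26.5% and 24.8%), and quantile normalization 18 and 13 (background 27.5% and 24.5%). All comparisons share arrays, so their counts are not independent of each other.

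**Figure D1:**
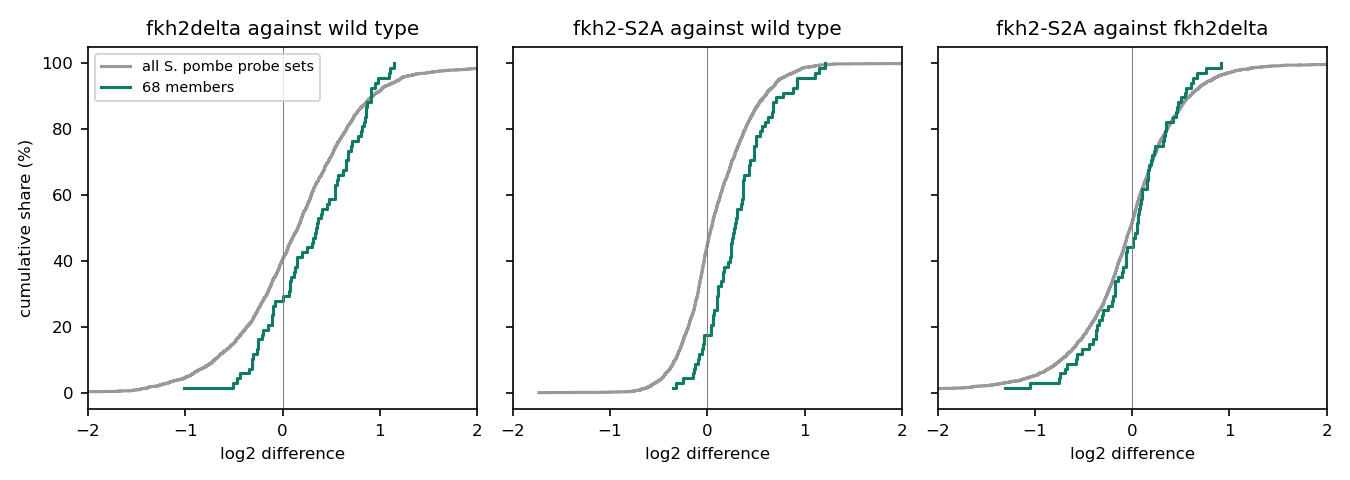
Cumulative share of genes (y, percent) at or below each log2 difference (x) for the 68 members (green) and all 2936 S. pombe probe sets (grey) in the 3 comparisons; differences beyond 2 are not drawn. The members' medians of 0.35 and 0.28 against wild type lie to the right of the medians of all probe sets (0.16 and 0.041), and the curves of the direct comparison lie close together.

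The nucleosome remodellers SWI/SNF and RSC share the subunits Ssr1 to Ssr4, and these 4 genes rose in both mutants, where 40.4% (fkh2delta) and 23.5% (fkh2-S2A) of all probe sets did. Of the shared actin-related genes outside the name pattern, arp9 also rose (0.47 ± 0.11 and 0.50 ± 0.11) and arp42 passed in neither (-0.13 ± 0.11 and 0.27 ± 0.11). The ssr2 signal was 9.04 and 8.91 in wild type, 9.83 and 9.84 in fkh2delta and 9.75 and 9.20 in fkh2-S2A. Both fkh2delta arrays and both fkh2-S2A arrays lay above wild type, and the fkh2-S2A arrays were far apart. The change of ssr2 was 0.86 ± 0.16 in fkh2delta (adjusted p = 0.00164) and 0.50 ± 0.16 in fkh2-S2A (adjusted p = 0.0437), the latter a call that was lost in 9 of 17 other settings of the analysis (another scaling, model or choice of arrays). The other shared genes rose by 0.41 ± 0.12 (ssr1), 0.65 ± 0.12 (ssr3) and 0.40 ± 0.15 (ssr4) in fkh2delta and by 0.56 ± 0.12, 0.48 ± 0.12 and 0.50 ± 0.15 in fkh2-S2A. In fkh2delta the calls of ssr1 and ssr4 were each lost in 4 of 17 other settings, quantile normalization and median centring among them. In fkh2-S2A the calls of ssr1, ssr3 and ssr4 were lost without wild-type replicate 2, where the changes were between 0.31 and 0.41. The ssr3 and ssr4 calls were each lost in 3 of 17 settings, ssr3 also without either fkh2-S2A array, and ssr4 also without fkh2-S2A replicate 2 and after quantile normalization.

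Among the member genes that belong to SWI/SNF alone, 3 of 4 rose in fkh2delta and 2 of 4 in fkh2-S2A (40.4% and 23.5% of all probe sets did). The SWI/SNF gene sol1, outside the name pattern, fell in fkh2delta and is given further below. For snf5, a core subunit, the arrays gave 6.83 and 6.73 in wild type, 7.77 and 7.62 in fkh2delta and 7.31 and 7.33 in fkh2-S2A. The 3 groups did not overlap, with fkh2delta highest and fkh2-S2A between it and wild type. The change was 0.91 ± 0.10 in fkh2delta (adjusted p = 8.38e-05), 0.54 ± 0.10 in fkh2-S2A (adjusted p = 0.00505) and -0.37 ± 0.10 between the mutants (adjusted p = 0.013). After quantile normalization the snf5 rises were 0.39 in fkh2delta and 0.29 in fkh2-S2A, where the call was lost (limma adjusted p = 0.0743). The difference between the mutants was then -0.10 (limma adjusted p = 0.449). Without fkh2delta replicate 1 that difference was -0.30, and its call was lost there too. The snf59 signal was 9.01 and 8.74 in wild type, 9.59 and 9.57 in fkh2delta and 9.62 and 9.36 in fkh2-S2A. All mutant arrays were above wild type, and the mutants overlapped. The gene rose in fkh2delta (0.71 ± 0.13, adjusted p = 0.00119) and in fkh2-S2A (0.62 ± 0.13, adjusted p = 0.00754), and without wild-type replicate 2 the fkh2-S2A change was 0.48 (adjusted p = 0.0713). The gene snf30 rose in fkh2delta (0.80 ± 0.14) and was 0.28 ± 0.14 in fkh2-S2A, and snf22, the ATPase gene of SWI/SNF, was 0.25 ± 0.15 and 0.30 ± 0.15, neither of which passed.

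The RSC genes did not move together. The gene of the RSC ATPase, snf21, gave signals of 8.97 and 8.65 in wild type, 9.57 and 9.78 in fkh2delta and 9.70 and 9.77 in fkh2-S2A. All 4 mutant arrays were above both wild-type arrays. It rose by 0.87 ± 0.13 in fkh2delta (adjusted p = 0.000435) and by 0.93 ± 0.13 in fkh2-S2A (adjusted p = 0.00218), and the mutants differed by 0.057 ± 0.13 (adjusted p = 0.739), which did not pass. The bromodomain gene rsc4 rose by 0.62 ± 0.10 and 0.68 ± 0.10. The gene rsc58 fell in fkh2delta (-0.32 ± 0.10), a call lost in 3 of 17 other settings, and rsc1 (-0.21 ± 0.11), rsc7 (-0.44 ± 0.18) and rsc9 (-0.25 ± 0.12) had differences below 0 that did not pass. In fkh2-S2A rsc9 rose (0.37 ± 0.12, lost in 12 of 17 settings), and rsc1, rsc7, rsc9 and rsc58 were higher in fkh2-S2A than in fkh2delta by 0.42 to 0.62, calls that were lost in 2 (rsc1) and 5 (rsc7) of 17 other settings. The RSC gene sfh1, a relative of snf5, was 0.32 ± 0.14 in fkh2delta and -0.048 ± 0.14 in fkh2-S2A and passed in neither.

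**Figure D2:**
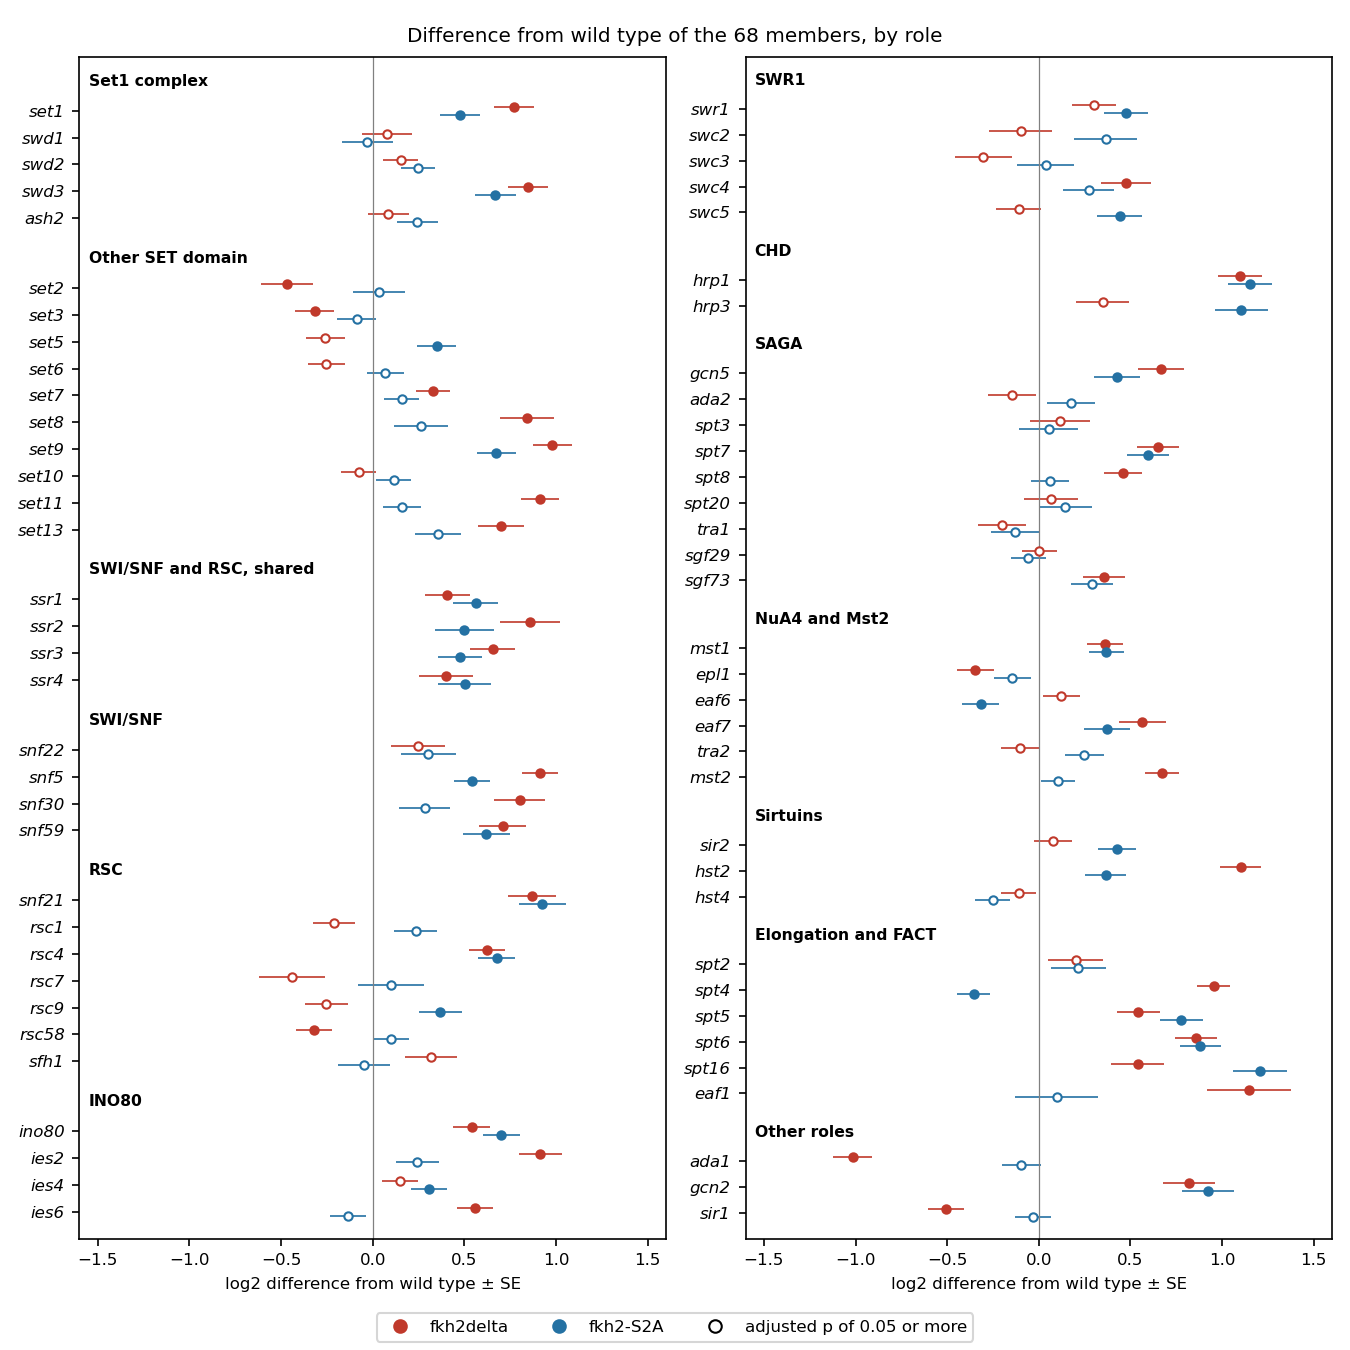
Log2 difference from wild type (x) of each of the 68 members (y, ordered by role) in fkh2delta (red) and fkh2-S2A (blue); bars are the SE of the fit, filled points had an adjusted p below 0.05 and open points did not. The 4 genes ssr1 to ssr4 are filled on the right in both mutants, while the SET domain and RSC genes spread to both sides of 0.

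In INO80, which removes and repositions nucleosomes, the ATPase gene ino80 rose in both mutants. Its signal was 8.95 and 8.78 in wild type, 9.42 and 9.39 in fkh2delta and 9.51 and 9.62 in fkh2-S2A. The groups did not overlap, with wild type lowest and fkh2-S2A highest. The change was 0.54 ± 0.10 in fkh2delta (adjusted p = 0.0015; 0.33 after quantile normalization, still called) and 0.70 ± 0.10 in fkh2-S2A (adjusted p = 0.00234). The subunit gene ies2 was higher in fkh2delta, with signals of 11.54 and 11.24 in wild type, 12.26 and 12.34 in fkh2delta and 11.63 and 11.64 in fkh2-S2A. The fkh2-S2A arrays lay just above the higher wild-type array. The gene rose by 0.91 ± 0.12 in fkh2delta (adjusted p = 0.000189), was 0.24 ± 0.12 in fkh2-S2A (adjusted p = 0.138), and was lower in fkh2-S2A than in fkh2delta by 0.67 ± 0.12 (adjusted p = 0.00155). The gene ies6 rose in fkh2delta (0.56 ± 0.10), was -0.13 ± 0.10 in fkh2-S2A and differed by -0.69 ± 0.10 between the mutants, with the fkh2-S2A arrays lowest. The gene ies4 was 0.15 ± 0.10 in fkh2delta and rose in fkh2-S2A (0.31 ± 0.10), a call lost in 13 of 17 other settings.

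The SWR1 complex puts the histone variant H2A.Z into nucleosomes. Of its 5 member genes 1 rose in fkh2delta and 2 rose in fkh2-S2A, against 40.4% and 23.5% of all probe sets. The ATPase gene swr1 had signals of 8.89 and 8.64 in wild type, 9.05 and 9.09 in fkh2delta and 9.13 and 9.34 in fkh2-S2A. The groups did not overlap, and wild type was lowest. Its rise in fkh2-S2A was 0.48 ± 0.12 (adjusted p = 0.0176), and the fkh2delta difference of 0.30 ± 0.12 did not pass (adjusted p = 0.0506). The swr1 call was lost after quantile normalization (0.27), without wild-type replicate 2 (0.35) and without fkh2-S2A replicate 2 (0.37). With the trend on gene length removed, swr1 was also called higher in fkh2delta (0.35, limma adjusted p = 0.0258). The gene swc4, whose product is also in NuA4, gave 10.09 and 9.75 in wild type, 10.33 and 10.46 in fkh2delta and 10.07 and 10.31 in fkh2-S2A. It rose in fkh2delta (0.48 ± 0.14, adjusted p = 0.0145; 0.30 without wild-type replicate 2 and 0.41 without fkh2delta replicate 2, neither called), while its fkh2-S2A arrays reached into the wild-type range (0.27 ± 0.14). The small subunit gene swc5 rose in fkh2-S2A (0.44 ± 0.12), a call lost in 3 of 17 settings. One of these was quantile normalization, where the change was 0.24. The swc5 signal was higher in fkh2-S2A than in fkh2delta (0.55 ± 0.12), and swc2 and swc3 passed in no comparison. With the length trend removed, swc2 was called higher in fkh2-S2A than in fkh2delta (0.55, limma adjusted p = 0.0252).

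The CHD remodeller genes hrp1 and hrp3, relatives of Chd1, which spaces nucleosomes over transcribed genes, were among the highest members in fkh2-S2A, and hrp1 also in fkh2delta. The hrp1 signal was 10.06 and 9.74 in wild type, 10.93 and 11.06 in fkh2delta and 11.04 and 11.06 in fkh2-S2A. All mutant arrays were close to each other and well above wild type. The rise was 1.10 ± 0.12 in fkh2delta (adjusted p = 9.27e-05) and 1.15 ± 0.12 in fkh2-S2A (adjusted p = 0.000972), or 2.14-fold and 2.22-fold. For hrp3 the arrays gave 8.70 and 8.34 in wild type, 8.79 and 8.95 in fkh2delta and 9.49 and 9.76 in fkh2-S2A. The groups did not overlap, but the fkh2delta arrays were close to the higher wild-type array. The rise was 1.11 ± 0.14 in fkh2-S2A (adjusted p = 0.0018), the fkh2delta difference of 0.35 ± 0.14 did not pass (adjusted p = 0.0591), and the mutants differed by 0.76 ± 0.14 (adjusted p = 0.00245). Both genes are long, and with the trend on gene length removed the fkh2-S2A changes were 1.00 for hrp1 and 0.94 for hrp3. In that setting hrp3 was also called higher in fkh2delta (0.41, limma adjusted p = 0.0279), and its difference between the mutants was 0.53.

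**Figure D3:**
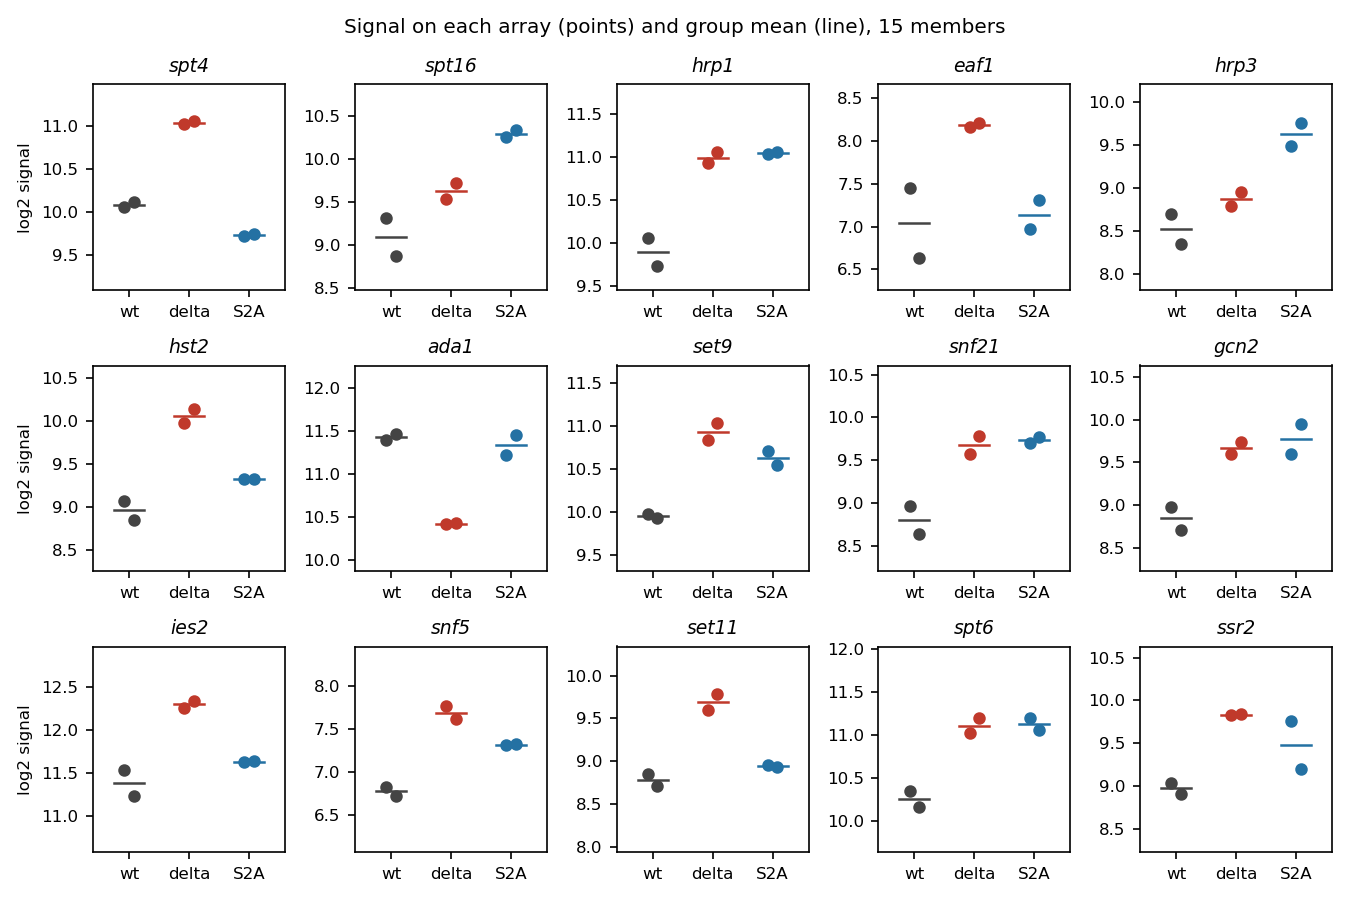
Log2 signal (y) on each array (points) with the group mean (line) for the 15 members with the largest differences, in wild type (wt), fkh2delta (delta) and fkh2-S2A (S2A); each panel spans 2.4 log2 units. The fkh2delta points are highest for spt4, eaf1 and hst2, the fkh2-S2A points are highest for spt16 and hrp3, and both mutants are at a like level above wild type for hrp1, snf21 and spt6.

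The Set1 complex methylates lysine 4 of histone H3. Of its 5 member genes 2 rose in each mutant, the catalytic gene and a WD-repeat subunit gene. Over all probe sets 40.4% rose in fkh2delta and 23.5% in fkh2-S2A. The swd3 signal was 6.65 and 6.39 in wild type, 7.34 and 7.40 in fkh2delta and 7.15 and 7.23 in fkh2-S2A. All mutant arrays exceeded wild type, by 0.85 ± 0.11 in fkh2delta (adjusted p = 0.000224) and 0.67 ± 0.11 in fkh2-S2A (adjusted p = 0.00341). After quantile normalization the fkh2delta change of swd3 was 0.24 and lost its call (adjusted p = 0.062). The catalytic gene set1 rose by 0.77 ± 0.11 and 0.48 ± 0.11; the second call was lost in 3 of 17 other settings. The remaining member genes swd1, swd2 and ash2 lay between 0.079 and 0.15 in fkh2delta and between -0.029 and 0.25 in fkh2-S2A. They passed in neither. Of the 3 measured genes of the complex outside the name pattern, 2 rose in fkh2delta and 1 in fkh2-S2A.

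The other SET domain genes went both ways. Highest was set9, whose product methylates lysine 20 of histone H4 and is known from the DNA damage checkpoint, with signals of 9.98 and 9.93 in wild type, 10.84 and 11.03 in fkh2delta and 10.71 and 10.55 in fkh2-S2A. The groups were ordered wild type, fkh2-S2A, fkh2delta without overlap. The change was 0.98 ± 0.11 in fkh2delta (adjusted p = 8.91e-05) and 0.68 ± 0.11 in fkh2-S2A (adjusted p = 0.00318), while the difference between the mutants (-0.30 ± 0.11, adjusted p = 0.0426) was lost in 8 of 17 other settings. The gene set11, whose product methylates a ribosomal protein, gave 8.85 and 8.71 in wild type, 9.60 and 9.79 in fkh2delta and 8.96 and 8.93 in fkh2-S2A. Both fkh2delta arrays were far above the other groups. It rose in fkh2delta (0.91 ± 0.11, adjusted p = 0.000113), was not called in fkh2-S2A (0.16 ± 0.11, adjusted p = 0.275), and was lower in fkh2-S2A than in fkh2delta by 0.75 ± 0.11 (adjusted p = 0.000501).

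The genes set8 (0.84 ± 0.15), set13 (0.70 ± 0.13), whose product also methylates a ribosomal protein, and set7 (0.33 ± 0.094), whose product methylates lysine 37 of histone H3, rose in fkh2delta as well. In fkh2-S2A their differences of 0.26 ± 0.15, 0.36 ± 0.13 and 0.16 ± 0.094 did not pass, and the set7 call in fkh2delta was lost in 4 of 17 other settings. The genes that fell in fkh2delta were set2 (-0.47 ± 0.14), whose product methylates lysine 36 of histone H3, and set3 (-0.32 ± 0.11), whose counterpart in Saccharomyces cerevisiae is in a deacetylase complex. The set2 call was lost without wild-type replicate 1 and without fkh2delta replicate 2, and the set3 call in 4 of 17 other settings. In fkh2-S2A set2 (0.035 ± 0.14) and set3 (-0.086 ± 0.11) did not pass, and set2 was higher there than in fkh2delta (0.50 ± 0.14, lost in 2 of 17 settings). The gene set5 rose in fkh2-S2A (0.35 ± 0.11, lost in 10 of 17 settings) and was -0.26 ± 0.11 in fkh2delta, a difference between the mutants of 0.61 ± 0.11. The genes set6 and set10 passed in neither comparison with wild type. The genes ino80 and set2 overlap at their ends in the RefSeq annotation, and they went opposite ways in fkh2delta; the position of their probes was not used here.

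SAGA acetylates histone H3 through Gcn5 and reaches promoters through its Spt and Tra1 subunits. Of 9 measured member genes 4 rose in fkh2delta and 2 in fkh2-S2A, shares near the 40.4% and 23.5% of all probe sets, and the others did not pass. The acetyltransferase gene gcn5 had signals of 9.94 and 9.92 in wild type, 10.50 and 10.71 in fkh2delta and 10.51 and 10.21 in fkh2-S2A. Both mutants lay above wild type, by 0.67 ± 0.13 in fkh2delta (adjusted p = 0.0015) and 0.43 ± 0.13 in fkh2-S2A (adjusted p = 0.0303), the second a call lost in 5 of 17 other settings. For spt7, which holds the complex together, the arrays gave 7.54 and 7.31 in wild type, 8.0 and 8.15 in fkh2delta and 8.08 and 7.96 in fkh2-S2A. All mutant arrays were above wild type. It rose by 0.65 ± 0.11 in fkh2delta (adjusted p = 0.00101) and 0.60 ± 0.11 in fkh2-S2A (adjusted p = 0.00557), values that were 0.28 and 0.30 after quantile normalization, the second without a call (adjusted p = 0.059).

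Further SAGA genes that rose in fkh2delta were spt8 (0.46 ± 0.10), from the part that meets the TATA-binding protein, and sgf73 (0.36 ± 0.12), from the deubiquitination module, the latter lost in 5 of 17 settings. In fkh2-S2A these were 0.061 ± 0.10 and 0.29 ± 0.12 and did not pass. The genes ada2, spt3, spt20, tra1 and sgf29 passed in no comparison, with differences from wild type between -0.20 and 0.18. With the length trend removed, tra1 was called lower in fkh2-S2A than in wild type (-0.41) and than in fkh2delta (-0.33). SAGA subunits outside the name pattern also differed among themselves: hfi1 (0.70 ± 0.10), taf12 (0.67 ± 0.12) and ubp8 (0.52 ± 0.11) rose in fkh2delta while taf6 fell (-0.75 ± 0.14), and taf12 alone of 9 rose in fkh2-S2A (0.70 ± 0.12).

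NuA4 and the Mst2 complex acetylate histones H4 and H3. The Mst2 acetyltransferase gene mst2 gave 8.55 and 8.48 in wild type, 9.17 and 9.20 in fkh2delta and 8.58 and 8.66 in fkh2-S2A. Its fkh2delta arrays stood above the other 4, with a rise of 0.67 ± 0.092 (adjusted p = 0.000285; 0.44 after quantile normalization, still called), a difference of 0.11 ± 0.092 in fkh2-S2A (adjusted p = 0.411) and of -0.57 ± 0.092 between the mutants (adjusted p = 0.00114). The NuA4 catalytic gene mst1 rose by 0.36 ± 0.10 and 0.37 ± 0.10, calls lost in 3 and 6 of 17 other settings. The NuA4 gene eaf7 had signals of 9.17 and 8.98 in wild type, 9.50 and 9.79 in fkh2delta and 9.52 and 9.38 in fkh2-S2A. All mutant arrays were above wild type. It rose in fkh2delta (0.57 ± 0.13, adjusted p = 0.00384) and in fkh2-S2A (0.37 ± 0.13, adjusted p = 0.0499), where the call was lost in 10 of 17 settings.

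The small gene eaf6, shared by NuA4 and the Mst2 complex, went the other way in fkh2-S2A, with signals of 10.17 and 10.02 in wild type, 10.22 and 10.21 in fkh2delta and 9.71 and 9.83 in fkh2-S2A. Both fkh2-S2A arrays were below all others. The fall was -0.32 ± 0.10 (adjusted p = 0.0395), lost in 12 of 17 other settings, and the difference from fkh2delta was -0.44 ± 0.10 (adjusted p = 0.00611), or -0.28 with the length trend removed. The scaffold gene epl1 fell in fkh2delta (-0.35 ± 0.10, lost in 2 of 17 settings), and tra2, a large Tra1 relative in NuA4, was -0.10 ± 0.11 and 0.25 ± 0.11. The mutants differed by 0.35 ± 0.11 in tra2, a call that ended and turned direction (-0.058) when the length trend was removed.

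The sirtuin genes, which encode NAD-dependent deacetylases, differed in their calls. For hst2 the signals were 9.07 and 8.85 in wild type, 9.98 and 10.14 in fkh2delta and 9.32 and 9.33 in fkh2-S2A. The fkh2delta arrays were far above the rest, a rise of 1.10 ± 0.11 (adjusted p = 5.87e-05) or 2.15-fold, against 0.37 ± 0.11 in fkh2-S2A (adjusted p = 0.0338, lost in 8 of 17 settings) and -0.74 ± 0.11 between the mutants (adjusted p = 0.000727). The silencing gene sir2 gave 9.64 and 9.42 in wild type, 9.60 and 9.61 in fkh2delta and 9.95 and 9.96 in fkh2-S2A. The fkh2-S2A arrays were highest, and the fkh2delta arrays lay within the wild-type range. It rose in fkh2-S2A (0.43 ± 0.10, adjusted p = 0.0148), a call lost without wild-type replicate 2 (0.32) and without fkh2-S2A replicate 2 (0.42), and was 0.076 ± 0.10 in fkh2delta (adjusted p = 0.537). The gene hst4, known for deacetylating lysine 56 of histone H3, passed in no comparison (-0.11 ± 0.095 and -0.25 ± 0.095). Its neighbour on chromosome I is hrp1, which rose in both mutants.

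Among the 68 members the 2 largest differences between the mutants were those of the elongation factor genes spt4 and eaf1. Spt4 and Spt5 form a factor that travels with RNA polymerase II. The spt4 signal was 10.05 and 10.12 in wild type, 11.02 and 11.06 in fkh2delta and 9.71 and 9.75 in fkh2-S2A, with fkh2delta highest and fkh2-S2A lowest and no overlap. It rose in fkh2delta (0.95 ± 0.091, adjusted p = 4.62e-05) and fell in fkh2-S2A (-0.36 ± 0.091, adjusted p = 0.019), and the mutants differed by -1.31 ± 0.091 (adjusted p = 9.9e-06). With 359 bases spt4 is the shortest member, and with the length trend removed the fkh2-S2A change was -0.094 (adjusted p = 0.494) while the difference between the mutants was -0.94. The fkh2-S2A call was also lost without wild-type replicate 2 (-0.32) and without fkh2-S2A replicate 1 (-0.34). Its partner gene spt5 rose in both mutants (0.54 ± 0.12 in fkh2delta and 0.78 ± 0.12 in fkh2-S2A).

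The FACT subunit gene spt16 rose most in fkh2-S2A, with signals of 9.31 and 8.87 in wild type, 9.53 and 9.72 in fkh2delta and 10.26 and 10.34 in fkh2-S2A. The groups were ordered wild type, fkh2delta, fkh2-S2A without overlap. The change was 1.21 ± 0.15 in fkh2-S2A (adjusted p = 0.00141), or 2.31-fold, and 1.11 with the length trend removed, against 0.54 ± 0.15 in fkh2delta (adjusted p = 0.0107), a call lost without wild-type replicate 2 (0.32) and without fkh2delta replicate 2 (0.45) and at 0.34 after quantile normalization. The mutants differed by 0.67 ± 0.15 (adjusted p = 0.00506). Its FACT partner pob3, outside the name pattern, also rose in fkh2-S2A (0.62 ± 0.15) and was 0.16 ± 0.15 in fkh2delta.

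The nucleosome chaperone gene spt6 had signals of 10.34 and 10.16 in wild type, 11.02 and 11.20 in fkh2delta and 11.20 and 11.06 in fkh2-S2A. All 4 mutant arrays were above wild type, and the mutants overlapped. It rose by 0.86 ± 0.11 (adjusted p = 0.000228) and 0.88 ± 0.11 (adjusted p = 0.0017). The gene eaf1, a partner of the ELL elongation factor, gave 7.44 and 6.64 in wild type, 8.17 and 8.21 in fkh2delta and 6.97 and 7.30 in fkh2-S2A. Its wild-type arrays differed by more than the other pairs, and the fkh2-S2A arrays lay between them. It rose in fkh2delta (1.15 ± 0.23, adjusted p = 0.00204; 0.74 without wild-type replicate 2, still called), was 0.10 ± 0.23 in fkh2-S2A (adjusted p = 0.776), and was lower in fkh2-S2A than in fkh2delta by 1.05 ± 0.23 (adjusted p = 0.00475). The histone chaperone gene spt2 passed in no comparison (0.20 ± 0.15 and 0.22 ± 0.15).

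Of the genes whose roles lie outside chromatin, ada1, the AMP deaminase gene of purine metabolism, gave 11.40 and 11.47 in wild type, 10.41 and 10.42 in fkh2delta and 11.22 and 11.45 in fkh2-S2A. The fkh2delta arrays were far below the other 4. It fell in fkh2delta (-1.01 ± 0.11, adjusted p = 6.8e-05), the deepest fall of the 68, and was -0.10 ± 0.11 in fkh2-S2A (adjusted p = 0.535). The sulfite reductase gene sir1 fell in fkh2delta as well (-0.51 ± 0.10) and was -0.032 ± 0.10 in fkh2-S2A. The gene gcn2, a kinase of translation factor eIF2 that answers amino acid shortage, gave 8.98 and 8.72 in wild type, 9.60 and 9.74 in fkh2delta and 9.60 and 9.95 in fkh2-S2A. Both mutants were above wild type without overlap, by 0.82 ± 0.14 (adjusted p = 0.000979) and 0.92 ± 0.14 (adjusted p = 0.00286).

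In the direct comparison spt4, eaf1, set11, hst2, ies6, ies2, set8, mst2, snf30, eaf6, spt8, snf5, set9 and set1 had lower signals in fkh2-S2A, from -1.31 to -0.30 in that order; the set1 call was lost in 13 of 17 other settings. The members higher in fkh2-S2A were ada1 (0.92), hrp3, spt16, rsc9, set5, swc5, rsc7, set2, sir1, rsc1, rsc58, sir2, tra2 and set6 (0.32). Of the 28 calls 15 held in all 17 other settings and 13 were lost in at least 1. Beside set1, the lower calls lost were set9 (8 settings), spt8 (3), snf30 and snf5 (2 each) and set8 (1). The higher calls lost were set6 and rsc7 (5 each), sir2 and tra2 (4 each), rsc1 and set2 (2 each) and sir1 (1). The sir1 call was lost with the length trend removed, at 0.25. Length ran along with these differences: over the 68 members the correlation of this difference with log2 gene length was 0.43, against 0.20 over all probe sets, and it was 0.38 against 0.25 for fkh2-S2A minus wild type. The genes share the same 6 arrays, so these coefficients are a description. With the trend removed 12 members were higher in fkh2-S2A (17.6%, background 22.3%) and 15 were lower (22.1%, background 26.4%). Against wild type 29 then rose in fkh2-S2A (42.6%, background 23.8%) and 1 fell (1.47%, background 10.7%). The 1 that fell was tra1 (-0.41), which was not called without this step, while spt4 and eaf6 lost their calls. The members' median length was 1968 bases, against 1876 over the probe sets with 1 gene.

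**Figure D4:**
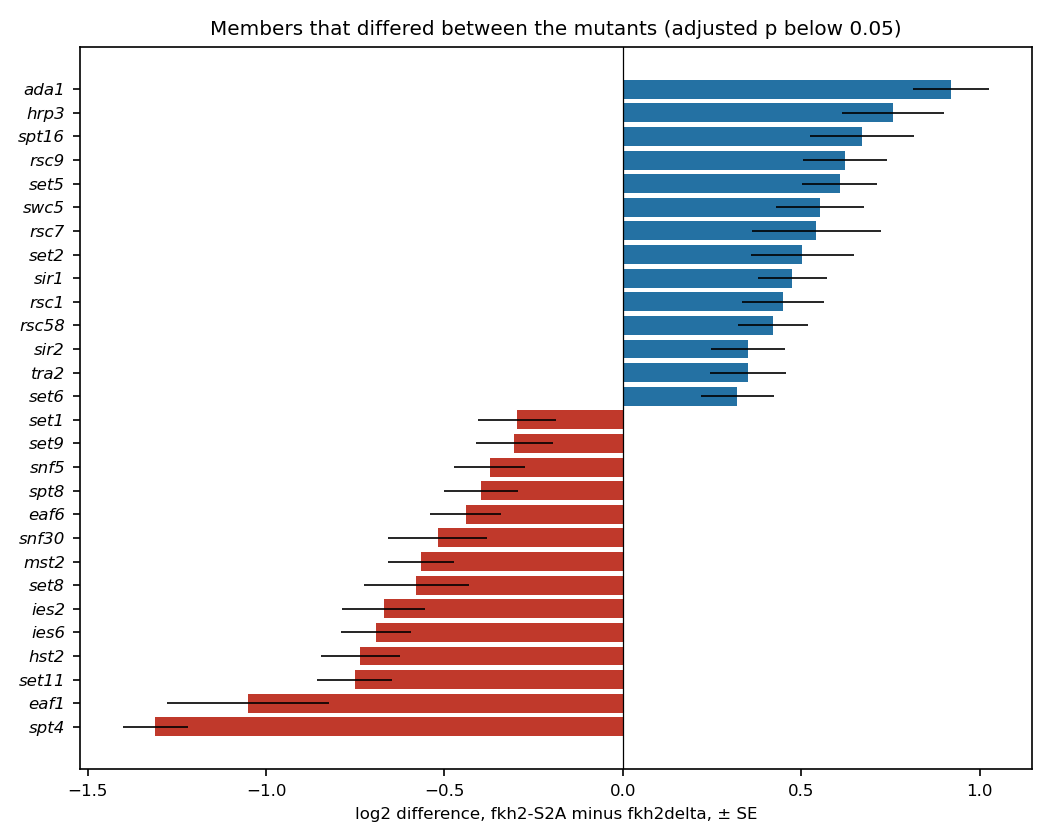
Log2 difference between the mutants (x, fkh2-S2A minus fkh2delta, bars from 0 with the SE of the fit) for the 28 members with an adjusted p below 0.05. The 14 members higher in fkh2-S2A (blue) are led by ada1 (0.92) and the 14 lower ones (red) by spt4 (-1.31).

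**Figure D5:**
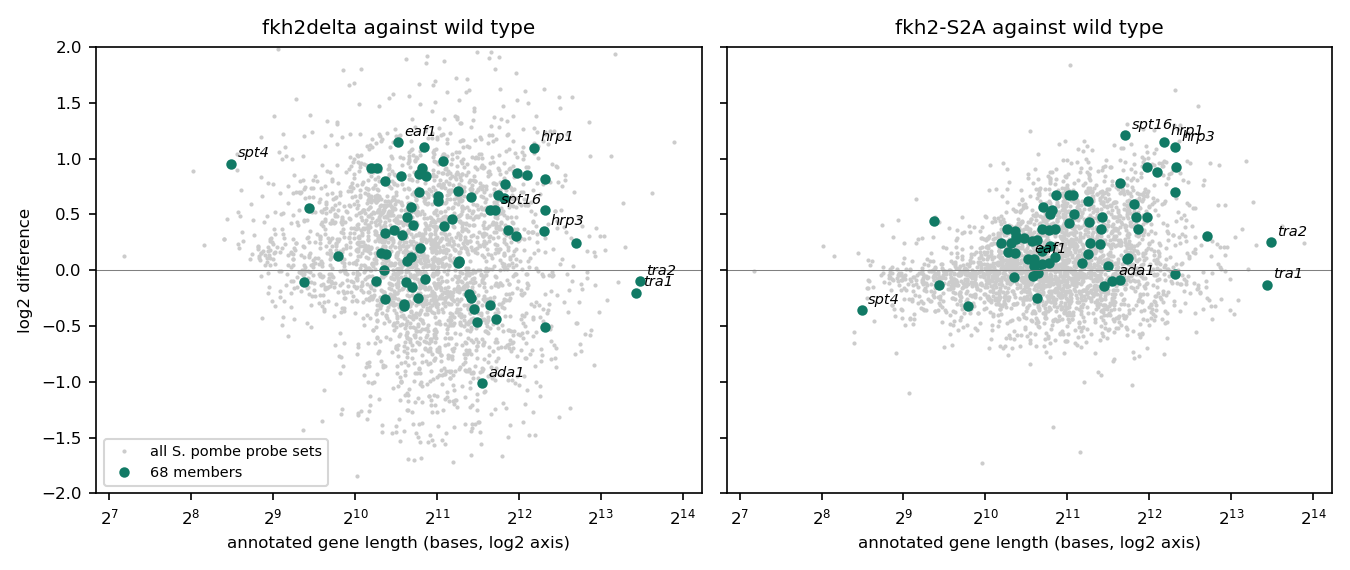
Log2 difference from wild type (y) against annotated gene length (x, log axis) for the 68 members (green) and all S. pombe probe sets (grey) in fkh2delta (left) and fkh2-S2A (right); differences beyond 2 are not drawn. In fkh2-S2A the shortest member spt4 is at -0.36 and the long genes hrp1, hrp3 and spt16 are above 1, while the longest, tra1 and tra2, are at -0.13 and 0.25.

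Chromatin genes outside the name pattern were read for context from lists of complexes and pathways. Of 86 such genes 46 rose and 9 fell in fkh2delta, and 36 rose and 1 fell in fkh2-S2A, with medians of 0.29 and 0.22. Beside these and the counts below, 40.4% of all probe sets rose and 23.6% fell in fkh2delta, and 23.5% rose and 9.84% fell in fkh2-S2A. Of 8 heterochromatin genes 6 rose in fkh2delta, led by the H3 lysine 9 methyltransferase gene clr4 (1.499 ± 0.095) and tas3 (1.36 ± 0.095), a subunit gene of the RNA interference complex RITS, and 5 rose in fkh2-S2A, where chp2 (0.79 ± 0.11) and chp1 (0.75 ± 0.16) were highest. In fkh2-S2A the difference of clr4 was 0.069 ± 0.095 and did not pass. The fkh2delta rises of chp2 (0.52 ± 0.11) and chp1 (0.56 ± 0.16) depended on the scaling. After quantile normalization they were 0.074 and -0.029, against 0.48 and 0.42 in fkh2-S2A, and clr4 was 1.07 in fkh2delta. Of 13 genes of deacetylase complexes 6 rose and 2 fell in fkh2delta, with cph1 (1.06 ± 0.10) highest and prw1 (-1.18 ± 0.11) lowest. After quantile normalization cph1 was 0.96 and prw1 -1.24, while clr1, which had risen by 0.28 ± 0.10, was 0.019. Of 13 histone chaperone genes 9 rose in fkh2delta and 7 in fkh2-S2A, with hip1 (0.78 ± 0.11 and 0.90 ± 0.11) among the highest in each.

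Against the same background (40.4% higher and 23.6% lower in fkh2delta, 23.5% higher in fkh2-S2A), 3 of 7 demethylase genes fell in fkh2delta, with jmj1 (-0.92 ± 0.12) and jmj3 (-0.87 ± 0.11) lowest, and 2 rose. Of the 3 Fun30 remodeller genes fft1 (0.86 ± 0.10 and 0.90 ± 0.10) and fft2 (0.70 ± 0.10 and 0.95 ± 0.10) rose in both mutants. Of 5 genes of H2B ubiquitination and the Paf1 complex 4 rose in fkh2delta and 3 in fkh2-S2A, with brl1 at 0.71 ± 0.11 and 0.58 ± 0.11. Subunit genes of the complexes described above also differed: the SWI/SNF gene sol1 fell (-1.65 ± 0.13) and the Set1 complex gene shg1 rose (1.22 ± 0.13) in fkh2delta, neither passed in fkh2-S2A (-0.36 ± 0.13 and 0.23 ± 0.13), and the INO80 gene nht1 rose in both mutants (0.93 ± 0.10 and 0.96 ± 0.10).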

How the data were processed

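RNA from cultures of 3 S. pombe groups was hybridised to 6 Affymetrix arrays, and the authors deposited 1 normalized log2 value per probe set and array. That the base is 2 is an inference from how far the values range. The submitters' software and normalization method were not given in the sources used here. Of 10928 probe sets 2936 match an S. pombe gene in the platform annotation, and names, gene lengths and neighbours came from RefSeq (ASM294v3). Background was set on each array at the 95th percentile of 2601 annotated probe sets that match no S. pombe gene. All 2936 were fitted with limma 3.58.1 in R 4.3.3, with group as the sole term, 3 residual degrees of freedom and two-sided Benjamini-Hochberg adjusted p-values at a threshold of 0.05, and the code was tested on simulated data. The number of arrays, 2 per group, limits the precision. Values on every array are given for the 15 members with the largest called difference in any comparison and for the leading member of each list. Other genes of the lists were named from the 3 largest called changes per list and comparison. The members and lists were chosen with earlier results of these data known. Afterwards eaf1 was moved from the NuA4 list to the elongation factors, and ada1 from the SAGA list to the genes with roles outside chromatin, on their annotation. Alternatives changed the normalization, the probe sets tested, the variance prior, array weights, the length trend, a replicate block and the arrays included. The setting that removes the length trend subtracts from each array its linear trend on log2 gene length, fitted over all S. pombe probe sets. The members' own slopes in fkh2-S2A were steeper (0.116 and 0.125, against 0.070 and 0.107), so that the removal was partial for them. Over the members a correlation with length of 0.11 remained for fkh2-S2A minus wild type and of 0.13 between the mutants.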

Additional observations from a re-analysis of the deposited data

How the results depend on the processing

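The comparisons were repeated under 17 other settings, 16 of them planned and 1 added after the data were seen. Of the members' calls, 29 of 41 held in all 17 in fkh2delta, 11 of 31 in fkh2-S2A and 15 of 28 between the mutants. In fkh2delta 18 members fell after quantile normalization and 13 after median centring. In fkh2-S2A 15 members rose and 4 fell after quantile normalization, and 442 probe sets rose over the whole table. After median centring 498 probe sets fell in fkh2-S2A. In fkh2-S2A 1 member fell with all probe sets tested, with an eBayes trend, with only the 2 groups compared, with array weights, with the replicate block and with the length trend removed. With the length trend removed that member was tra1, which was not called in the main fit. The same setting also added calls: rises of hrp3 and swr1 and a fall of set5 in fkh2delta, and rises of swd2 and set13 in fkh2-S2A. Between the mutants it added swc2 as higher and tra1 as lower in fkh2-S2A. Leaving out each array in turn gave 28 to 38 members higher and 2 to 9 lower in fkh2delta, with 896 to 1230 and 511 to 723 probe sets over the whole table. For fkh2-S2A it gave 12 to 26 members higher and 0 to 1 lower (limma; at an unadjusted p below 0.05, 1 to 3 were lower), with 247 to 656 and 40 to 265 probe sets, the lowest counts of rises being those without wild-type replicate 2. For fkh2-S2A against fkh2delta it gave 8 to 16 members higher and 10 to 16 lower, with 442 to 673 and 538 to 774 probe sets; 8 were higher without fkh2delta replicate 2 and also without fkh2-S2A replicate 2. These fits assume that a lone array varies like the other groups. Same-numbered arrays did not deviate together (r = -0.18, -0.085 and -0.27 for the 3 pairs of groups). These values cannot show which arrays, if any, were prepared together, and this was not tested. With the replicate block 35 members rose and 6 fell in fkh2delta (1121 and 647 of all probe sets), 24 rose in fkh2-S2A (604), and 14 were higher and 12 lower between the mutants (624 and 726). With the fkh2delta numbers crossed, the block gave 30 rises in fkh2-S2A. Of the members only spt3 was below the background level, on 1 array. Some dim members above it still changed with the scaling. In fkh2delta quantile normalization took swd3 from 0.85 to 0.24, snf5 from 0.91 to 0.39 and spt7 from 0.65 to 0.28. The brighter hrp1 went from 1.10 to 1.01.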
